A study of Homo sapiens with 45 samples.

Results

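The genes described here encode the proteins of the mitochondrial ribosome and carry symbols that start with MRPL, for the large subunit, or MRPS, for the small subunit. They were chosen by symbol (MRPL or MRPS, a number and at most 1 letter) and by a mean level of at least 1 TPM in Jurkat cells given DMSO for 6 h, where TPM is transcripts per 1e+06, a read share corrected for gene length. All 78 genes with such a symbol passed, of 38557 genes in the tables, so no symbol fell outside the threshold. The members nearest to it from inside were MRPS36 at 9.57 TPM and MRPL55 at 14.4 TPM. The choice used a level in 1 group and no comparison between groups.

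Mitochondria keep a small genome of their own, whose mRNAs encode core subunits of the respiratory chain complexes and of ATP synthase. These mRNAs are translated inside the organelle by a ribosome of a large and a small subunit. Its ribosomal RNAs come from the mitochondrial genome, while every ribosomal protein is encoded in the nucleus, made in the cytosol and imported. Some of these proteins have bacterial counterparts, such as MRPL4 or MRPS11, and others are found only in mitochondria, such as MRPL40 or MRPS34. Symbols do not always match the protein's place: the products of MRPS18A and MRPS30 sit in the large subunit, and the product of MRPS36 is known as a subunit of the oxoglutarate dehydrogenase complex.

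Poly(A) RNA was sequenced from 4 lines of human T-cell acute lymphoblastic leukaemia, Jurkat, CCRF-CEM, KOPT-K1 and TALL-1, in 45 libraries that form 15 groups of 3. The study targeted SMARCA4 and SMARCA2, the ATPases of SWI/SNF chromatin remodelling complexes. It also targeted ARID1A and ARID1B, subunits of 1 form of these complexes, cBAF. Jurkat cells expressing Cas9 received lentiviral guides named gAAVS1 (the control), gARID1A, gARID1A_1B, gSMARCA4 or gSMARCA4_A2, were selected with puromycin over 4 days and harvested at 10 days, so the control carries Cas9, guide and selection as well. BRM014, an inhibitor of both ATPases, was given at 1 uM against 0.01% DMSO, for 6 h in all 4 lines and also for 8 d in Jurkat. The labels name the 3 libraries of each group as biological replicates and do not say how the cultures were kept apart, so p-values measure the spread between these libraries.

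Targeted mRNAs did not all follow the labels. ARID1A was 83.1 TPM in the libraries labelled gARID1A and 94.4 TPM in gAAVS1, a fall of 0.18 on the log2 scale (adjusted p = 0.0073), but 101 TPM in those labelled gARID1A_1B (log2 0.10, adjusted p = 0.096), in which ARID1B fell by 0.88 on the log2 scale (adjusted p = 5.5e-11). SMARCA4 fell by 1.12 on the log2 scale in gSMARCA4 and by 0.95 in gSMARCA4_A2, whereas SMARCA2 in gSMARCA4_A2 stood at 22.4 TPM against 21.8 TPM in the control (adjusted p = 0.67). In gSMARCA4, SMARCA2 was 26.6 TPM (log2 0.28 against gAAVS1, adjusted p = 0.0038). Its gSMARCA4_A2 libraries (22.1 to 22.6 TPM) all lay below its gSMARCA4 libraries (25.4 to 27.5 TPM). Against gAAVS1, the mRNA level therefore does not show the loss that 2 of these labels name. Protein is not part of these data, and the groups are called by their labels. Depth was 29.7 to 47.9 M reads per library for Jurkat and 19.7 to 27.0 M for the rest. Mitochondrially encoded mRNAs made up 20.0% to 24.9% of all TPM in Jurkat but 4.99% to 8.04% elsewhere, and extraction and library kit differed too, so no value was tested between the 2 tables. Of 10 T cell markers, all 10 reached 1 TPM in Jurkat and 9 or 10 in each other group, and 0 of 6 myeloid markers did (summed level at most 0.966 TPM). Of 6 B cell markers, 2 reached it in Jurkat and 1 or 2 elsewhere, and their sum ran from 2.76 to 21.6 TPM in Jurkat and from 7.46 to 151 TPM in the other lines. That sum was lower in every library of each BRM014 or guide group than in all libraries of its control, for example 2.76 to 3.25 TPM against 12.6 to 16.3 TPM at 8 d, and its part in the results was not tested. Of 6 epithelial and fibroblast markers 2 or 3 reached 1 TPM in Jurkat and 0 to 2 elsewhere (summed level at most 9.85 TPM), and of 5 erythroid and megakaryocyte markers 1 or 2 and 0 (at most 6.23 TPM).

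The members were well expressed in every group. In Jurkat given DMSO for 6 h, their median level was 69.2 TPM, beside 11.8 TPM over all tested genes. MRPL51 was highest at 275 TPM, ahead of MRPL3 at 235 TPM, MRPL20 at 224 TPM and MRPL9 at 196 TPM, and MRPS36, MRPL55, MRPL23 and MRPL42 (16.8 TPM) were lowest. Together the 78 genes summed to between 5041 and 6538 TPM in each Jurkat library, and to between 6508 and 9504 TPM elsewhere. The reference annotation placed them on 21 chromosomes and none on the mitochondrial genome. It also showed limits to single values: 34 members have named pseudogenes, 75 in all, of which MRPS21 has 8, and exons of 21 members overlap exons of a protein-coding gene on the opposite strand. The Jurkat kit does not keep strand, so reads of MRPS18A and RSPH9 (47.0% of the MRPS18A exon bases shared), MRPS18C and ABRAXAS1 (40.2%), MRPL51 and NCAPD2 (31.3%), MRPS12 and SARS2 (16.3%) or MRPL34 and ABHD8 (13.2%) cannot be told apart there. In bulk RNA, a changed level per cell and a changed share of cells that hold the transcript cannot be told apart either.

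Promoters are shown for 6 members on which the results below turn. MRPL16, MRPL40 and MRPL48 moved furthest after 8 d of BRM014 and in the gSMARCA4_A2 libraries, and MRPL24, MRPL34 and MRPL42 rose in every line at 6 h and were picked from the members that did so because their promoters hold the element marked. Each window runs from 130 bases before the annotated RefSeq start to 3 bases from it onwards, on GRCh38.p14, in the direction of transcription. Capitals mark matches to a motif: CCGGAAG, the core that ETS factors bind, or its reverse complement, in the first 3, and the element of ZNF143 and THAP11, which reads ACTACA, then 2 bases of any kind, then TCCC, in the last 3.
MRPL16, chr11:59810776-59810908, minus strand: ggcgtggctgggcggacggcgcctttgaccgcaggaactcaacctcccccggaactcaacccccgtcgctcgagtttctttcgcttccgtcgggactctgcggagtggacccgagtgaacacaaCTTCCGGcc
MRPL40, chr22:19432415-19432547, plus strand: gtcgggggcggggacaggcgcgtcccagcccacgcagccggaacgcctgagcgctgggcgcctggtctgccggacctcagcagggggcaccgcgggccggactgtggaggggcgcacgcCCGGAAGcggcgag
MRPL48, chr11:73787744-73787876, plus strand: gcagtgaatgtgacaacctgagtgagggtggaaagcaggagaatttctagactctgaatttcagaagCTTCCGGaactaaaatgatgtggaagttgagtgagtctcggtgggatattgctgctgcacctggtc
MRPL24, chr1:156741086-156741218, minus strand: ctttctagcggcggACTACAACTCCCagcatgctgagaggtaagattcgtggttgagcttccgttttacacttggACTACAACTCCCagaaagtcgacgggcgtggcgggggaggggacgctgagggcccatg
MRPL34, chr19:17305742-17305874, plus strand: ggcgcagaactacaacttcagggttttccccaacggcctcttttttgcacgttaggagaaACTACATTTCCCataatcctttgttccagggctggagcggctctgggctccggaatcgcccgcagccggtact
MRPL42, chr12:93467384-93467516, plus strand: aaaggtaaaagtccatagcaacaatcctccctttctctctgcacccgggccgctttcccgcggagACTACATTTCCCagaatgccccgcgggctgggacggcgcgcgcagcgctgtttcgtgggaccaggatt
The match begins 6 bases before the start in MRPL16, 11 in MRPL40 and 63 in MRPL48. It lies 116 and 55 bases before the start in MRPL24, 70 in MRPL34 and 65 in MRPL42. MRPL34 has 4 annotated starts, and the one shown is the one whose window holds the element.

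Over 300-base windows (250 bases before the start and 50 after), searched on both strands, 69 members had a promoter in the RefSeq table. CCGGAAG was found in 30 of 69 members (43.5%), beside 12.2% of 27305 genes in that table and 20.8% of the tested genes in it. AAGATGGCG, a motif of the factor YY1, was in 13 members (18.8%), beside 2.14% of all and 4.21% of tested genes. The ZNF143 and THAP11 element was in 7 members (10.1%), beside 2.15% and 4.04%, and it was added to the search after the sequences had been seen. The 7 were MRPL19, MRPL24, MRPL34, MRPL42, MRPL50, MRPS22 and MRPS26, of which MRPS26 fell in 3 lines at 6 h. The palindrome that NRF1 binds, GCGCA joined to TGCGC, was in 1 member (1.45%), beside 1.52% and 2.63%, and the E-box CACGTG in 9 (13.0%), beside 8.77% and 12.4%. Apart from the 2 free bases, every motif was searched as exact letters. A match is a run of letters and not a measured binding site.

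The first comparison asks what 6 h of SMARCA4/2 inhibition did to these genes. Effects were mostly small and of both signs over the 9 comparisons of a treated or guide group with its control. On the log2(TPM + 1) scale, no member passed 2-fold and 6 passed 1.5-fold (MRPL16, MRPL40, MRPL41, MRPL48, MRPS6 and MRPS26). Of the 15069 genes tested in both tables, 16.2% and 42.7% did. MRPL40 in gSMARCA4_A2 came nearest to 2-fold there, and it was past 2-fold in mean TPM, at 36.7 TPM against 17.9 TPM in gAAVS1. A member counted as called where limma's test on log2(TPM + 1) gave a Benjamini-Hochberg adjusted p under 0.05 over all tested genes. All fold changes are on that scale, in log2 units. In Jurkat at 6 h, 28 of 78 members rose and 11 fell, beside 26.8% and 20.7% of all tested genes. Their median change was 0.07, beside 0.04 over all genes, and the lower count was 7 without BRM014 replicate 2. In CCRF-CEM, 16 rose and 16 fell, beside 28.9% and 20.9%. KOPT-K1 had 13 higher and 8 lower members, beside 22.9% and 15.2%, and TALL-1 had 20 and 11, beside 26.6% and 19.3%. With the replicate number as a block, CCRF-CEM had 20 and 22, beside 34.4% and 24.9%. KOPT-K1 then had 19 and 22, beside 29.3% and 19.6%, and TALL-1 31 and 17, beside 32.4% and 23.7%. The balance depended on scaling. With median-ratio rescaling of the libraries, Jurkat had 19 higher and 14 lower members, beside 23.1% and 24.3% of all tested genes. CCRF-CEM then had 9 and 28, beside 22.5% and 25.9%, and KOPT-K1 10 and 20, beside 17.3% and 19.8%. TALL-1 had 14 and 16, beside 22.5% and 22.5%. The members' median turned from 0.02 to -0.05 in KOPT-K1 and from 0.03 to -0.03 in TALL-1 with that rescaling, so no direction is given for the family in these lines. The summed level of the family at 6 h was 6449 ± 104 TPM with BRM014 and 6272 ± 269 TPM with DMSO in Jurkat, 7532 ± 334 and 7795 ± 367 in CCRF-CEM, 9180 ± 265 and 9317 ± 273 in KOPT-K1, and 6773 ± 120 and 6655 ± 181 in TALL-1 (SD, n = 3). In each line the 2 sums differed by less than the larger of their SDs. Mitochondrially encoded mRNAs took 7.45% ± 0.525 of TPM with BRM014 and 6.47% ± 0.707 with DMSO in CCRF-CEM, 6.96% ± 0.507 and 5.99% ± 0.891 in KOPT-K1, and 6.12% ± 0.081 and 5.56% ± 0.204 in TALL-1.

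**Figure D1:**
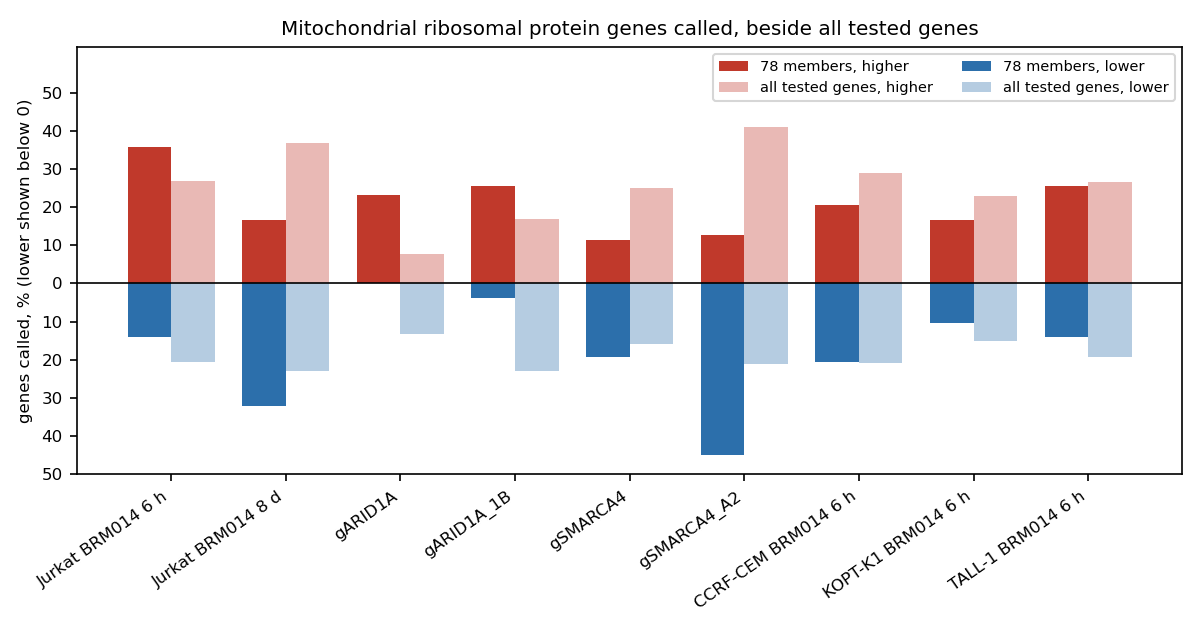
Share of the 78 genes (dark bars) and of all tested genes (pale bars) called at an adjusted p under 0.05 in each of 9 comparisons with a control, in percent; higher calls are above 0 and lower calls below. The gSMARCA4_A2 libraries have the tallest lower bar for the members, 35 of 78 genes, beside 21.1% of all tested genes, and gARID1A has no lower call.

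Some members moved alike in all 4 lines. At 6 h 9 members rose in all 4 lines (MRPL22, MRPL24, MRPL34, MRPL42, MRPL52, MRPS11, MRPS21, MRPS24 and MRPS28), and 4 fell in all 4 (MRPL4, MRPL12, MRPL16 and MRPS34). Of the 15069 genes tested in both tables, 10.5% rose and 6.1% fell in all 4 lines, shares close to those of the members.

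Among large-subunit proteins, MRPL16, the counterpart of bacterial uL16 near the catalytic centre, fell furthest in Jurkat, CCRF-CEM and TALL-1. It stood at 91.4, 96.9 and 99.0 TPM with DMSO and at 64.2, 65.6 and 68.7 TPM with BRM014 in Jurkat. CCRF-CEM had 120.3, 118 and 131 TPM with DMSO and 74.1, 66.6 and 83.2 TPM with BRM014. TALL-1 had 108, 111 and 112 TPM with DMSO and 62.9, 63.6 and 64.5 TPM with BRM014. Every treated library lay below every control library in these 3 lines and also in KOPT-K1. KOPT-K1 gave 182, 177 and 171 TPM with DMSO and 121, 130.4 and 127 TPM with BRM014. The change was -0.53 ± 0.06 in Jurkat (SE, adjusted p = 8.6e-08), -0.72 ± 0.06 in CCRF-CEM (adjusted p = 3.5e-07), -0.48 ± 0.06 in KOPT-K1 (adjusted p = 2.8e-05) and -0.78 ± 0.06 in TALL-1 (adjusted p = 1.4e-07). The difference TALL-1 minus KOPT-K1 was -0.30 ± 0.09 (adjusted p = 0.032).

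MRPL4, which lines the exit tunnel, and MRPL12, the stalk protein that recruits translation factors, fell in the same 4 lines. MRPL12 was 569, 538 and 509 TPM with DMSO and 409.7, 402 and 366 TPM with BRM014 in KOPT-K1, with no overlap. In Jurkat it was 165, 137 and 166 TPM with DMSO and 138, 128 and 135 TPM with BRM014, and the lowest DMSO library fell between the treated ones. Its changes ran from -0.22 in Jurkat (adjusted p = 0.038, a call lost without the filter on low values and in the fit of these groups alone) to -0.48 in CCRF-CEM (adjusted p = 0.00032). MRPL4 changed by -0.26 in Jurkat (adjusted p = 0.0083, a call lost without DMSO replicate 3), -0.46 in CCRF-CEM, -0.26 in KOPT-K1 (adjusted p = 0.047) and -0.38 in TALL-1. MRPL41, a mitochondrion-specific protein, fell in CCRF-CEM (-0.57 ± 0.12, adjusted p = 0.001) and in KOPT-K1 (-0.63 ± 0.12, adjusted p = 0.00067), and had -0.14 in TALL-1 and 0.09 in Jurkat without a call.

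Small-subunit members that fell were led by MRPS26, a mitochondrion-specific protein. TALL-1 gave 179.7, 175 and 175 TPM with DMSO and 102, 105 and 110.1 TPM with BRM014, and CCRF-CEM 287, 287 and 288 TPM against 170.0, 169.7 and 196 TPM. In KOPT-K1 the groups overlapped, with 267, 257 and 224 TPM against 234, 237 and 209.7 TPM. The changes were -0.74 in TALL-1 (adjusted p = 4.7e-07), -0.69 in CCRF-CEM (adjusted p = 1.1e-06), -0.44 in Jurkat (adjusted p = 3.1e-05) and -0.14 in KOPT-K1 (adjusted p = 0.14). The difference between KOPT-K1 and the other 2 lines of its table was itself called: -0.55 ± 0.10 for CCRF-CEM minus KOPT-K1 (adjusted p = 0.0011) and -0.60 ± 0.10 for TALL-1 minus KOPT-K1 (adjusted p = 0.00042). MRPS34, also mitochondrion-specific, fell by 0.33 in Jurkat, 0.51 in CCRF-CEM, 0.20 in KOPT-K1 and 0.26 in TALL-1, all on the log2 scale.

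Among those that rose in all 4 lines, MRPS11, a conserved protein of the small subunit platform, rose by at least 0.33 in each. Its levels were 20.6, 20.9 and 19.4 TPM with DMSO and 29.0, 29.0 and 30.2 TPM with BRM014 in TALL-1, and 21.6, 22.7 and 22.4 TPM against 27.8, 30.2 and 26.6 TPM in Jurkat. No treated library overlapped a control library in these 2 lines. TALL-1 had a change of 0.51 (adjusted p = 2.1e-07), Jurkat 0.33, CCRF-CEM 0.45 and KOPT-K1 0.38. MRPL34, a small conserved protein of the large subunit, went from 177, 196 and 167 TPM to 260.5, 269 and 254 TPM in KOPT-K1, without overlap. It rose by 0.53 ± 0.08 there (adjusted p = 8.3e-05), by 0.33 in Jurkat, 0.41 in CCRF-CEM and 0.30 in TALL-1. The kit of KOPT-K1, CCRF-CEM and TALL-1 marks strand, but whether the counting used it is not given in the sources used here. MRPL24, a conserved protein near the exit tunnel, rose by 0.27 in Jurkat, 0.48 in CCRF-CEM, 0.46 in KOPT-K1 and 0.36 in TALL-1. MRPL42, mitochondrion-specific and of low level here, rose by 0.24, 0.44, 0.45 and 0.43 in the same order.

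The calls of the paralogues of bacterial bS18 were not alike at 6 h, and differences between the paralogues were not tested. MRPS18B, in the small subunit, rose in Jurkat (0.24, adjusted p = 0.00021), CCRF-CEM (0.13, adjusted p = 0.036) and KOPT-K1 (0.24, adjusted p = 0.00092), and had 0.07 in TALL-1 without a call. MRPS18A, in the large subunit, fell in Jurkat (-0.14, adjusted p = 0.043) and KOPT-K1 (-0.21, adjusted p = 0.012). Without a call it had -0.12 in CCRF-CEM and -0.07 in TALL-1. MRPS18C, in the small subunit, fell in Jurkat (-0.14, adjusted p = 0.014) and rose in TALL-1 (0.17, adjusted p = 0.017). Without a call it had 0.03 in CCRF-CEM and -0.13 in KOPT-K1. Opposite-strand exons cover 47.0% of the MRPS18A and 40.2% of the MRPS18C exon bases, as given above.

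**Figure D2:**
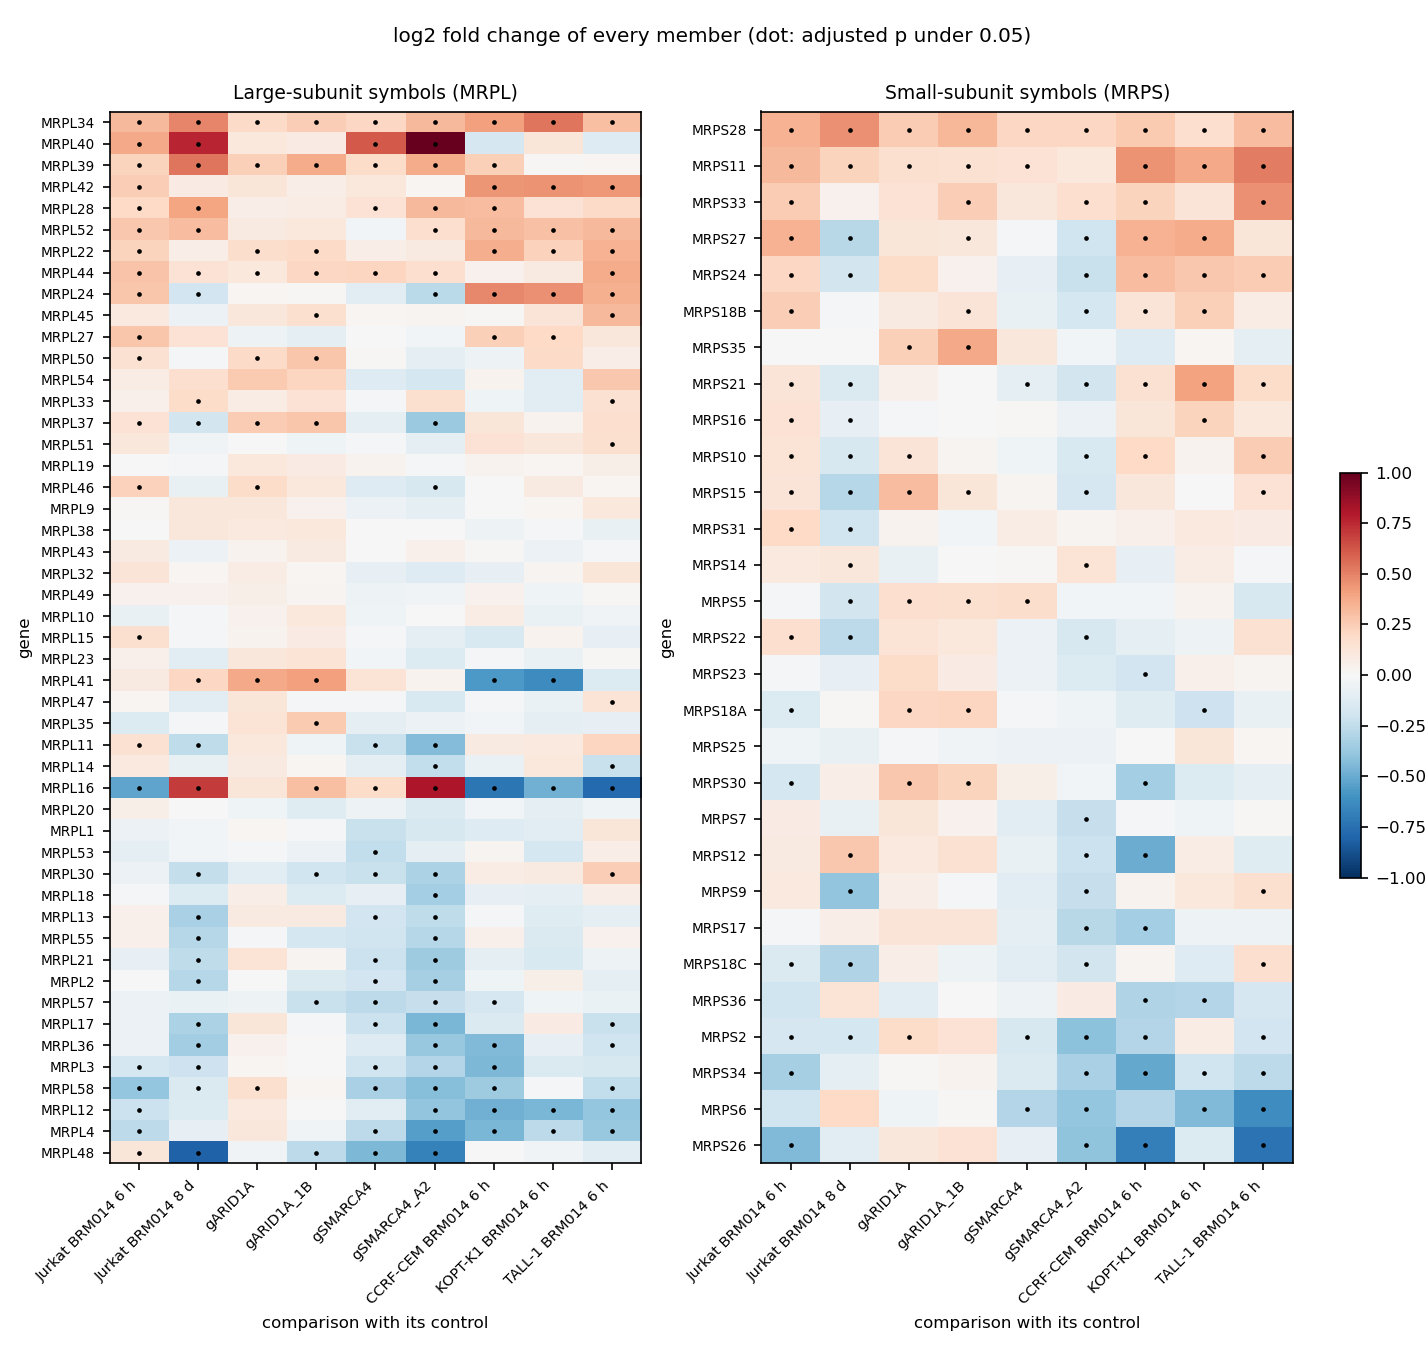
Log2 fold change of each of the 78 genes (vertical axis, MRPL symbols on the left and MRPS symbols on the right) in 9 comparisons with a control (horizontal axis), on the log2(TPM + 1) scale; dots mark an adjusted p under 0.05. MRPL34 and MRPS28 have a dot in all 9 columns, and MRPL16 turns from lower to higher between the 6 h and 8 d columns of Jurkat.

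After 8 d of BRM014 in Jurkat, more members fell than rose. The counts were 13 higher and 25 lower, beside 36.9% and 23% of all tested genes. The members' median change was -0.06, and that of all genes 0.08. With median-ratio rescaling the counts were 8 higher and 28 lower, beside 32.5% and 28% of all tested genes. The summed level was 5326 ± 37.2 TPM with BRM014 and 5450 ± 362 TPM with DMSO (SD, n = 3), so the total differed by less than the spread of the DMSO libraries. DMSO replicate 1 had the lowest sum, 5041 TPM, beside 5577 and 5731 TPM in replicates 2 and 3.

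MRPL16 had turned over. It stood at 91.7, 91.8 and 89.9 TPM in the DMSO libraries and at 142, 147 and 156 TPM after 8 d, every treated library above every control. The change was 0.70 ± 0.06 (adjusted p = 5.4e-10), and it differed from the change at 6 h by 1.22 ± 0.08 (adjusted p = 1.1e-10). MRPL40, a mitochondrion-specific protein of the large subunit, rose at both times, from 15.9, 16.9 and 16.5 TPM to 27.6, 28.0 and 29.9 TPM at 8 d. These groups were well apart, and the change was 0.76 ± 0.07 at 8 d (adjusted p = 7.2e-09) and 0.38 ± 0.07 at 6 h (adjusted p = 0.00015). In the other 3 lines MRPL40 was not called at 6 h, with changes between -0.17 and 0.12.

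MRPL48, a mitochondrion-specific protein of the central protuberance, fell most at 8 d. Its levels were 32.4, 31.9 and 30.7 TPM with DMSO and 17.7, 18.5 and 16.7 TPM with BRM014. All treated libraries lay far below all controls. The change was -0.81 ± 0.05 (adjusted p = 2.8e-12), after 0.12 at 6 h (adjusted p = 0.035, a call lost without the filter on low values and with median-ratio rescaling). The difference between times was -0.93 ± 0.07 (adjusted p = 4.2e-10). MRPS27, a small-subunit protein with pentatricopeptide repeats, was 104, 104 and 103 TPM with DMSO and 131, 136 and 131 TPM with BRM014 at 6 h. At 8 d it was 122, 111 and 110.2 TPM with DMSO and 93.1, 97.5 and 91.9 TPM with BRM014. The groups stood apart at both times and in opposite order, with changes of 0.35 and -0.28 and a difference of -0.63 ± 0.06 (adjusted p = 4.7e-08). MRPS9, a conserved small-subunit protein, had 0.10 at 6 h without a call and fell by 0.39 on the log2 scale at 8 d (adjusted p = 1.3e-06). Over all members, the difference between the 2 times was called higher in 9 and lower in 24, beside 25.7% and 18.5% of all tested genes.

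**Figure D3:**
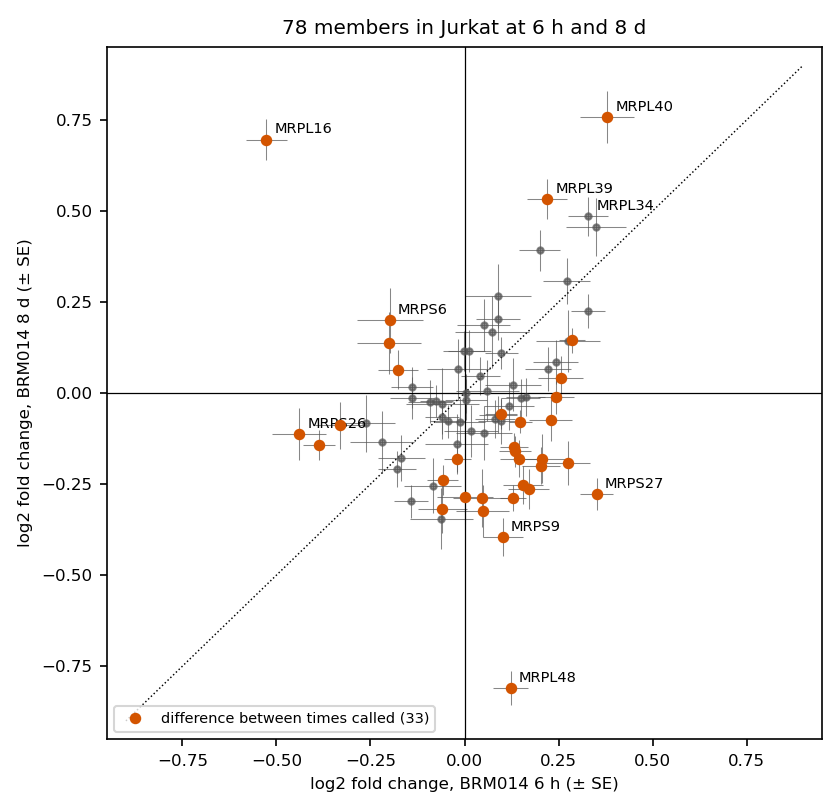
Log2 fold change of each of the 78 genes after 6 h of BRM014 (horizontal axis) and after 8 d (vertical axis) in Jurkat, each with its SE; orange points mark the genes whose change differed between the times, 9 higher and 24 lower at 8 d. MRPL16 lies alone at the upper left, at -0.53 and 0.70, and MRPL48 at the bottom, at 0.12 and -0.81.

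The guide groups ask whether guides against these SWI/SNF subunits moved the members, and all 4 share the gAAVS1 libraries as control. Their counts differed in direction. With gARID1A, 18 members rose, beside 7.72% of all tested genes, and limma called 0 lower, beside 13.2%. At an unadjusted p under 0.05, 1 member was lower, and limma-voom on recovered reads called 0 lower, beside 13.4% of all tested genes. With gARID1A_1B, 20 rose and 3 fell, beside 17% and 23.1%. With gSMARCA4, 9 rose and 15 fell, beside 25.1% and 15.8%. With gSMARCA4_A2, 10 rose and 35 fell, beside 40.9% and 21.1%. The members' median change was 0.10, 0.07, -0.06 and -0.14 in that order, and that of all genes -0.03, -0.03, 0.04 and 0.11. Median-ratio rescaling gave 24 higher and 0 lower for gARID1A, beside 10.7% and 11.6% of all tested genes. It gave 5 and 20 for gSMARCA4, beside 22.2% and 19.5%, and 5 and 52 for gSMARCA4_A2, beside 33% and 28.7%. The fit without mitochondrial mRNAs gave 7 and 19 for gSMARCA4, beside 23.4% and 17%. The gARID1A count was 10 higher without gARID1A replicate 2, and the lower count was 1 without gAAVS1 replicate 1.

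Summed levels followed the same order. The family took 5666 ± 89.3 TPM in gAAVS1, 6078 ± 234 in gARID1A, 5930 ± 144 in gARID1A_1B, 5461 ± 70.5 in gSMARCA4 and 5216 ± 58.2 in gSMARCA4_A2 (SD, n = 3). The means of the ARID1A guide groups lay above that of the control and those of the SMARCA4 guide groups below it, each by more than the SD of the control libraries.

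MRPL16, MRPL40 and MRPL48, which led at 8 d of BRM014, were also the members that moved furthest in gSMARCA4_A2. MRPL40 was 19.2, 16.5 and 17.9 TPM in gAAVS1, 28.7, 27.6 and 27.4 TPM in gSMARCA4 and 33.0, 38.0 and 39.3 TPM in gSMARCA4_A2. The 3 groups did not overlap, and the change was 0.62 ± 0.07 in gSMARCA4 (adjusted p = 4.7e-07) and 1.00 ± 0.07 in gSMARCA4_A2 (adjusted p = 1.3e-10). MRPL16 was 92.2, 80.6 and 84.8 TPM in gAAVS1 and 158, 146 and 148 TPM in gSMARCA4_A2, a rise of 0.81 ± 0.06 without overlap (adjusted p = 7e-11). In gSMARCA4 it had 108, 90.5 and 94.9 TPM, overlapping the control, with a change of 0.18 (adjusted p = 0.011) that lost its call with median-ratio rescaling. MRPL48 was 26.7, 26.9 and 27.4 TPM in gAAVS1, 20.0, 18.8 and 19.8 TPM in gSMARCA4 and 15.8, 17.0 and 16.9 TPM in gSMARCA4_A2. The levels fell into 3 separate groups, with changes of -0.45 ± 0.05 (adjusted p = 9.1e-08) and -0.67 ± 0.05 (adjusted p = 7.2e-11). In the libraries labelled gARID1A_1B, MRPL16 rose by 0.30 (adjusted p = 0.00016) and MRPL48 fell by 0.26 on the log2 scale (adjusted p = 0.00011), while MRPL40 had 0.08 (adjusted p = 0.39).

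**Figure D4:**
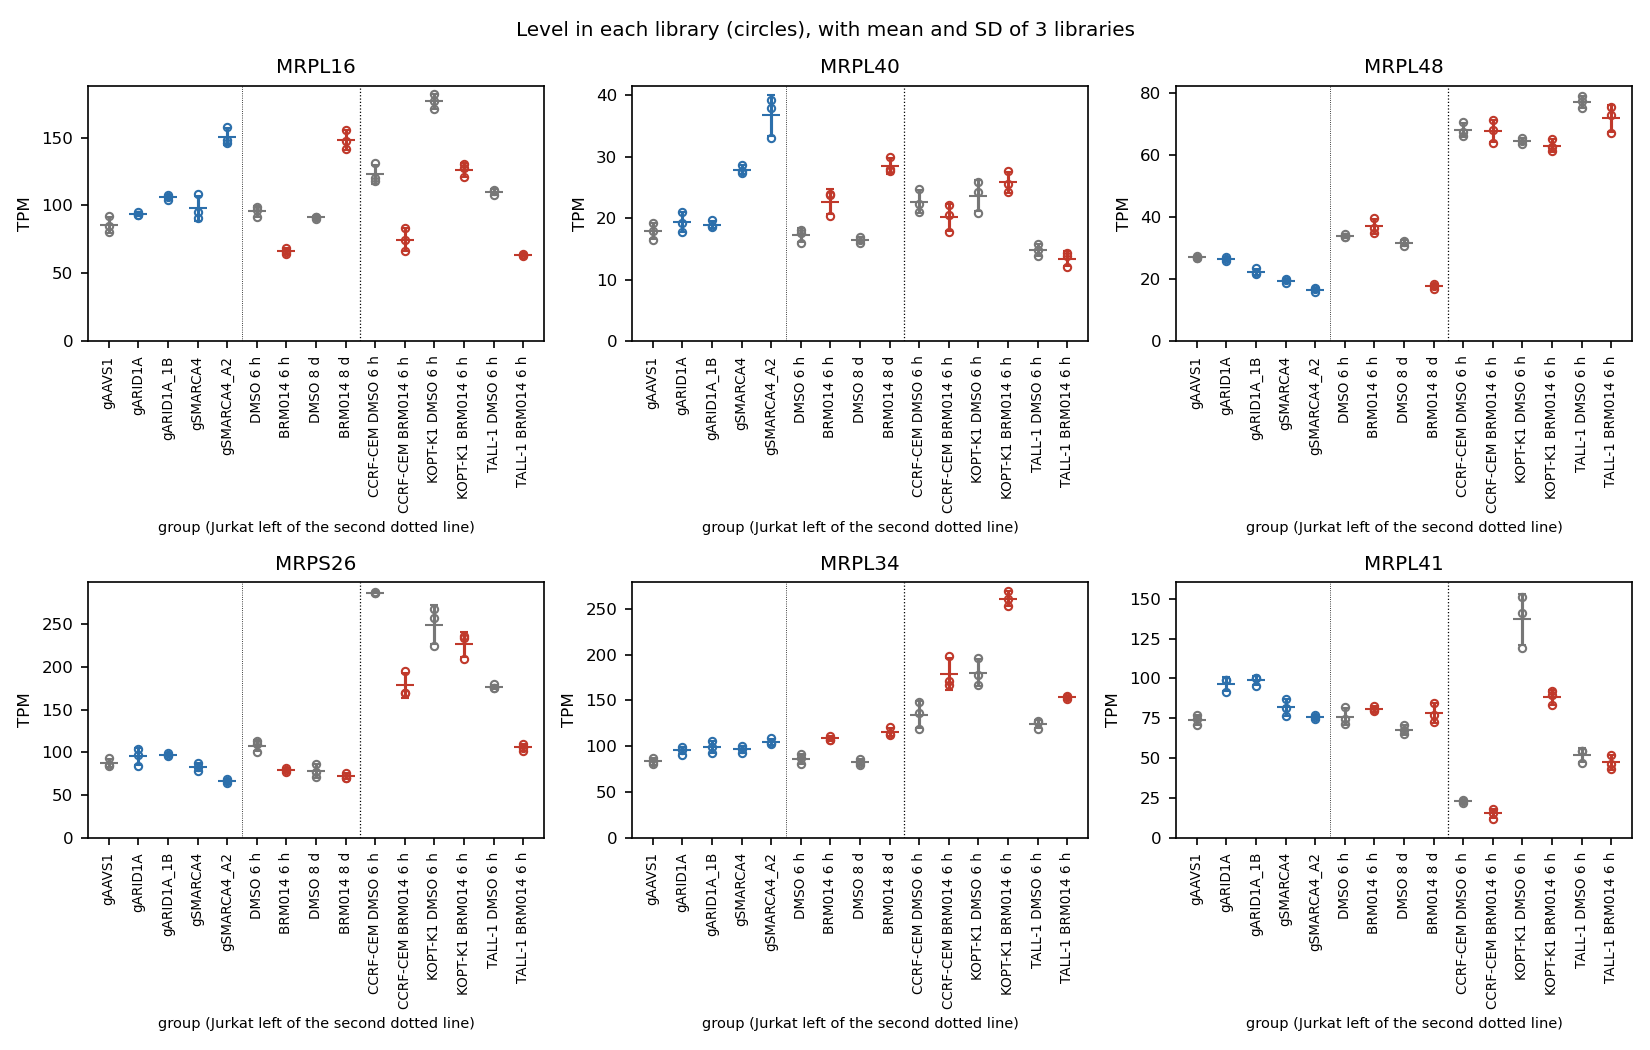
TPM of 6 genes in each library (circles) of the 15 groups, with the mean and SD of 3 libraries (bars); grey groups are controls, blue groups carry other guides and red groups had BRM014, and axes start at 0. MRPL16 is below its DMSO control at 6 h in every line but above it at 8 d in Jurkat and in gSMARCA4_A2, where it reaches 146 to 158 TPM.

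Other members that fell with SMARCA4 guides included MRPL58, a peptidyl-tRNA hydrolase that rescues stalled ribosomes. It was 62.4, 61.5 and 62.7 TPM in gAAVS1, 48.7, 48.9 and 51.2 TPM in gSMARCA4 and 46.7, 47.8 and 43.6 TPM in gSMARCA4_A2. Both guide groups lay below the control, with changes of -0.32 (adjusted p = 2e-06) and -0.43 (adjusted p = 1.2e-08), but it rose in gARID1A (0.16, adjusted p = 0.0067). MRPL4 changed by -0.26 in gSMARCA4 (adjusted p = 0.01) and by -0.55 in gSMARCA4_A2 (adjusted p = 2.7e-06). MRPL17 and MRPL11, both conserved large-subunit proteins, fell in gSMARCA4_A2 by 0.46 and 0.44 on the log2 scale.

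With the ARID1A guides the leading member was MRPL41. It was 74.7, 70.5 and 76.9 TPM in gAAVS1, 91.3, 99.3 and 99.0 TPM in gARID1A and 95.4, 101 and 101 TPM in gARID1A_1B. Both guide groups lay above the control, by 0.38 (adjusted p = 5.4e-05) and 0.41 (adjusted p = 6.7e-06). In gSMARCA4_A2 it had 0.03 (adjusted p = 0.63).

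The double guides were also set against the single ones. Between gARID1A_1B and gARID1A, 2 members were higher and 5 lower, beside 10.3% and 10.6% of all tested genes. The split turned to 6 higher and 3 lower with mitochondrial mRNAs left out, beside 14.8% and 7.53%. It was 5 and 3 with limma-voom on recovered reads, beside 15.4% and 10.3%, so no direction is given for the family here. MRPL16 was higher by 0.18 (adjusted p = 0.026) and MRPL48 lower by 0.23 (adjusted p = 0.0012). The 7 calls became 3 without gARID1A replicate 2 and 4 without gARID1A replicate 3 or without gARID1A_1B replicate 1 or 3. Between gSMARCA4_A2 and gSMARCA4, 6 were higher and 18 lower, beside 26.5% and 12.3%. Median-ratio rescaling gave 2 and 33, beside 20% and 18%, and leaving out mitochondrial mRNAs gave 9 and 13, beside 29.9% and 10.6%. MRPL16 differed most, by 0.62 ± 0.06 (adjusted p = 4.5e-08), ahead of MRPL40 at 0.38 (adjusted p = 0.00027).

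Across the 9 comparisons with a control, 66 of 78 members were called at least once and 25 in both directions, beside 93.4% and 32.3% of the 15069 genes tested in both tables. The 12 never called were MRPL1, MRPL9, MRPL10, MRPL19, MRPL20, MRPL23, MRPL32, MRPL38, MRPL43, MRPL49, MRPL54 and MRPS25. MRPL34 and MRPS28 rose in 9 of 9 comparisons, beside 0.896% of those genes, MRPS11 in 8 and MRPL39 and MRPL44 in 7, where the 4 guide groups share 1 control. The MRPL34 changes ran from 0.19 in gARID1A to 0.53 in KOPT-K1, and those of MRPS28, a small-subunit protein, from 0.17 in KOPT-K1 to 0.46 in Jurkat at 8 d. The MRPS28 calls in both SMARCA4 guide groups were lost with median-ratio rescaling. MRPL39, mitochondrion-specific, was 31.5, 34.3 and 36.7 TPM with DMSO and 48.1, 50.3 and 51 TPM after 8 d of BRM014, a rise of 0.53 without overlap (adjusted p = 2e-08). MRPL44, which has a ribonuclease-like fold, rose by 0.10 to 0.37 in its 7 comparisons. On the lower side, MRPL4, MRPL58 and MRPS2 fell in 6 comparisons, of which MRPL58 and MRPS2 each also rose in gARID1A.

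Lower calls were found in all structural classes in gSMARCA4_A2 and under BRM014 in every line and at both times in Jurkat. In gARID1A, gARID1A_1B and gSMARCA4 at least 1 class had no lower call. In gSMARCA4_A2, 13 of 28 conserved and 6 of 23 mitochondrion-specific large-subunit genes fell, and so did 11 of 16 conserved and 5 of 11 mitochondrion-specific small-subunit genes. These are 46.4%, 26.1%, 68.8% and 45.5%, beside 21.1% of all tested genes. The last class includes MRPS36, described above as encoding a subunit of the oxoglutarate dehydrogenase complex. In gSMARCA4 the mitochondrion-specific small-subunit class had 0 lower calls, and in gARID1A limma called 0 members lower. In Jurkat at 6 h the same classes had 7, 9, 7 and 5 members higher and 4, 3, 2 and 2 lower, beside 26.8% and 20.7% of all tested genes. These counts were not tested against each other.

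Levels with DMSO differed widely between lines. In the 3 lines of 1 table given DMSO, CCRF-CEM had 17 members higher and 38 lower than KOPT-K1, beside 32.9% and 29.6% of all tested genes. TALL-1 had 16 higher and 39 lower than CCRF-CEM, beside 32.6% and 35%. TALL-1 had 12 higher and 52 lower than KOPT-K1, beside 35.4% and 35.1%, with a median of -0.37. The widest gap was that of MRPL41, at 22.0, 22.7 and 23.4 TPM in CCRF-CEM, 54.7, 47.0 and 54.4 TPM in TALL-1 and 119, 151 and 141 TPM in KOPT-K1. The 3 lines did not overlap, and the difference of CCRF-CEM from KOPT-K1 was -2.54 ± 0.12 (adjusted p = 3.6e-11). MRPL12 was 198, 181 and 214 TPM in TALL-1 and 569, 538 and 509 TPM in KOPT-K1, a change of -1.44 (adjusted p = 6.1e-10) without overlap. MRPS34 was 94.4, 92 and 102 TPM in TALL-1 and 283, 282 and 296 TPM in CCRF-CEM (-1.57, adjusted p = 4.7e-12). MRPS21, a conserved protein with 8 named pseudogenes whose reads may be split with it, went the other way, at 111, 109 and 120.3 TPM in CCRF-CEM and 44.0, 41.4 and 46.2 TPM in KOPT-K1 (1.35, adjusted p = 2.4e-12). Each line is 1 line, so these are differences between lines and not between classes of leukaemia.

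**Figure D5:**
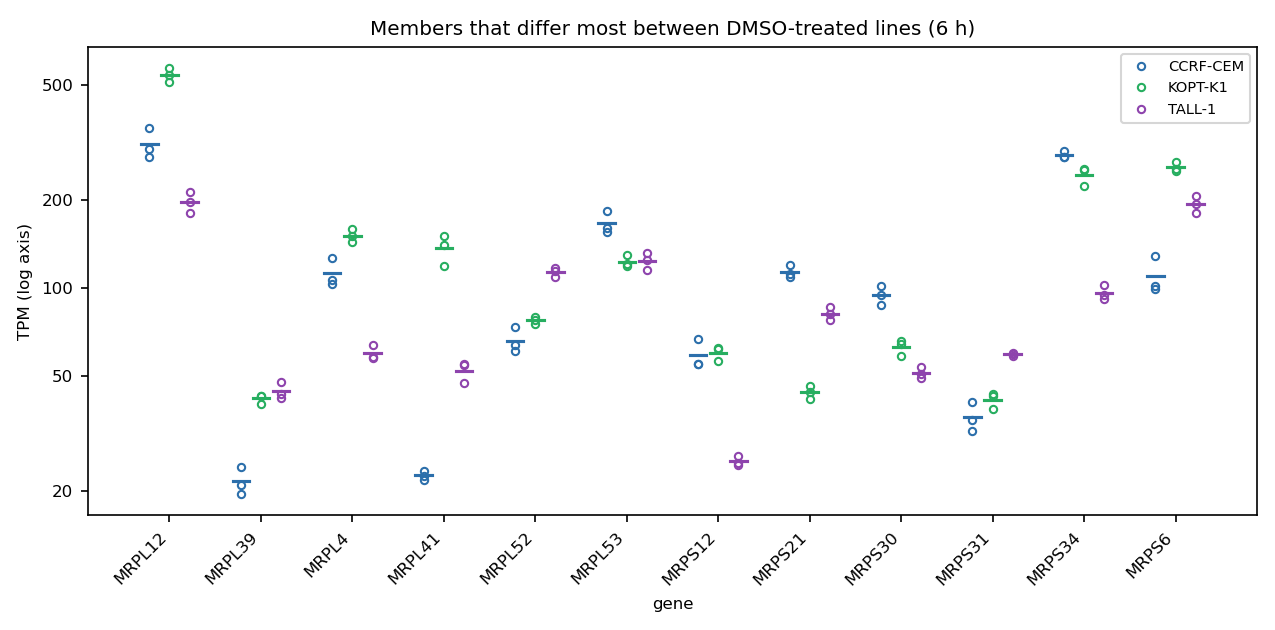
TPM of the members that differed most between CCRF-CEM, KOPT-K1 and TALL-1 given DMSO for 6 h, on a log axis; circles are libraries and bars the mean of 3. MRPL41 spans the widest range, from 22.0 TPM in CCRF-CEM to 151 TPM in KOPT-K1, and MRPS21 is lowest in KOPT-K1.

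In the fit without a block, the change with BRM014 was called as different between these 3 lines for few members. The difference CCRF-CEM minus KOPT-K1 was called by limma in 0 members higher and 6 lower, beside 8.62% and 9.72% of all tested genes, and at an unadjusted p under 0.05 in 0 higher and 14 lower. For TALL-1 minus CCRF-CEM there were 2 higher and 0 lower by limma, beside 9.85% and 10.5%, and 13 and 1 at an unadjusted p under 0.05. With limma-voom on recovered reads, 6 and 2 members in all were called for these differences. Of all tested genes, 6.53% were then higher and 8.14% lower, and 7.92% and 8.05%. For TALL-1 minus KOPT-K1 4 were higher and 6 lower, beside 10.1% and 11.2%. That split became 8 and 5 with median-ratio rescaling, beside 11.5% and 11%, and 5 and 4 with limma-voom, beside 8.63% and 9.07%. Single libraries moved these counts: CCRF-CEM minus KOPT-K1 had 3 calls without CCRF-CEM BRM014 replicate 1 and 10 without its replicate 3. TALL-1 minus CCRF-CEM had 8 without CCRF-CEM BRM014 replicate 3 and 4 without CCRF-CEM DMSO replicate 1 or TALL-1 BRM014 replicate 3. TALL-1 minus KOPT-K1 had 5 without KOPT-K1 BRM014 replicate 1, KOPT-K1 DMSO replicate 3, TALL-1 BRM014 replicate 2 or TALL-1 DMSO replicate 2. With the replicate number as a block, the 3 differences had 19, 20 and 26 calls. These were 3 higher and 16 lower, 17 and 3, and 13 and 13 in the order above. All tested genes had more calls with the block too: 15.5% higher and 15.5% lower, 15.1% and 17.7%, and 15.9% and 17.6%. MRPS12, the decoding-centre protein, changed by -0.50 in CCRF-CEM, and its difference from KOPT-K1 was -0.57 (adjusted p = 0.0094).

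Genes around the mitochondrial ribosome were read from lists of the same pathway. Of 5 further ribosome proteins with other symbols, DAP3, a GTP-binding small-subunit protein, fell at 6 h in all 4 lines and AURKAIP1, another small-subunit protein, rose in all 4. DAP3 was 123 ± 8.17 TPM with BRM014 and 175 ± 9.74 TPM with DMSO in Jurkat (-0.50, adjusted p = 1.3e-08), and changed by -0.68 in CCRF-CEM, -0.37 in KOPT-K1 and -0.48 in TALL-1. AURKAIP1 changed by 0.33, 0.42, 0.28 and 0.23 in the same order. Of 16 translation factors, 6 rose and 4 fell in Jurkat at 6 h, and 2 rose and 8 fell at 8 d, beside 26.8% and 20.7% of all tested genes at 6 h and 36.9% and 23% at 8 d. C12orf65, a release factor homologue for stalled mitochondrial ribosomes, went from 23.8 ± 1.41 to 112 ± 6.65 TPM in TALL-1 (2.19, adjusted p = 4e-09) and rose in Jurkat by 0.87 at 6 h and 0.91 at 8 d.

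Of 22 assembly factors, 7 rose and 3 fell in Jurkat at 6 h, 4 rose and 10 fell at 8 d, and 5 rose and 8 fell in gSMARCA4_A2, where 40.9% and 21.1% of all tested genes did. The 6 h counts were 31.8% and 13.6% of the list, beside 26.8% and 20.7% of all genes. Those at 8 d were 18.2% and 45.5%, beside 36.9% and 23%. NSUN4, a ribosomal RNA methyltransferase of the assembly step, fell at 8 d by 0.56 on the log2 scale (adjusted p = 6.6e-07) and in gSMARCA4_A2 by 0.50 (adjusted p = 3.8e-06). Of 22 mitochondrial aminoacyl-tRNA synthetases, 7 rose and 1 fell at 6 h and 7 rose and 7 fell at 8 d in Jurkat. The higher calls (31.8% of the list at each time) lie near the shares of all genes, 26.8% and 36.9%. Lower calls took 4.55% of the list at 6 h, beside 20.7% of all genes, and 31.8% at 8 d, beside 23%. GARS1, which serves cytosol and mitochondria, fell at 8 d from 344 ± 53.5 to 185 ± 6.27 TPM (-0.88, adjusted p = 4.2e-08). Of 11 genes for copying and transcribing mitochondrial DNA, 1 rose and 3 fell at 6 h and 2 rose and 4 fell at 8 d in Jurkat. Of 13 mitochondrially encoded mRNAs, limma called 0 higher and 0 lower at 6 h, and 2 rose and 2 fell at 8 d. Of all tested genes, 26.8% rose and 20.7% fell at 6 h, and 36.9% and 23% at 8 d.

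Cytosolic ribosomal protein genes served as the parallel family. Of 82 tested in Jurkat, 3 rose and 48 fell after 8 d (36.9% and 23% of all tested genes), and 10 rose and 39 fell in gSMARCA4_A2 (40.9% and 21.1% of all). In TALL-1 at 6 h limma called 35 of 84 higher and 0 lower (1 lower at an unadjusted p under 0.05), beside 26.6% and 19.3% of all, where 20 of the 78 mitochondrial ribosomal genes rose and 11 fell. Whether the 2 families differ was not tested.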

How the data were processed

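Poly(A) RNA of 45 libraries was read from 2 tables, 27 Jurkat libraries and 18 of the other lines. Jurkat RNA was extracted with a Maxwell kit and prepared without strand, and RNA of the other lines came from RNeasy columns and a directional kit, per the labels' protocols. HISAT2 2.2.1, featureCounts 2.0.3, DESeq2 1.38.2 and the build hg38 are named per the submitters' processing notes, and no DESeq2 value is reported. Each table that the authors deposited holds TPM values and another column, the gene length in bases. TPM times length gave whole reads within 0.01 for 100% of values above 0, and depth comes from these. Replicates of 1 group differed by more than sampling noise (chi-square per degree of freedom 2.476 to 44.33).

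The test was limma 3.58.1 in R 4.3.3 (statmod 1.5.0) on log2(TPM + 1), with genes of at least 1 TPM in at least 3 libraries (17936 in Jurkat, 16241 in the other lines). All groups of a table entered 1 fit (18 and 12 residual degrees of freedom), with trended, robust moderation, and p-values were adjusted over all tested genes in each of 18 comparisons. It was tested on simulated data. Replicate numbers were taken to pair libraries where the correlations of same-numbered libraries' deviations were all above 0.1. Only CCRF-CEM met this threshold, with 0.119, 0.286 and 0.447. Jurkat at 6 h fell just short, with 0.172, 0.296 and 0.091. KOPT-K1 had 0.106, 0.0423 and 0.065, and TALL-1 had 0.0329, 0.0903 and 0.173. The main counts, SEs and p-values come from the fit without a block, also in CCRF-CEM and in the differences between lines. In CCRF-CEM the blocked fit gave 20 higher and 22 lower members. Alternatives were another pseudocount, other filters, median-ratio rescaling, mitochondrial mRNAs left out, plain moderation, fits of 2 groups, the block, limma-voom on recovered reads, and each library left out.

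The members and the gene lists were chosen with earlier results of these data known. Named members were the 6 largest increases and decreases called in gARID1A_1B, in gSMARCA4_A2 and in Jurkat under BRM014 at either time, up to 3 of each in other comparisons, those called most often in 1 direction or in both, the 4 highest and 4 lowest levels, and MRPS18A, MRPS18B and MRPS18C. From other lists the 2 largest changes per comparison could be named. Genes were matched by symbol to RefSeq GRCh38.p14 (77 by symbol and 1 by synonym) and to GENCODE 29. Figures were drawn with Python 3.11.15 and matplotlib 3.10.9.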

Additional observations from a re-analysis of the deposited data

Results flagged for a closer look

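The change under BRM014 itself differed between times or lines for the members counted in the report, by limma's test of the difference (Benjamini-Hochberg adjusted p over all tested genes). The 17 results given here are up to 3 of the largest in each direction per comparison, not all of them. In Jurkat, the change at 8 d minus that at 6 h was 1.22 for MRPL16 (adjusted p = 1.1e-10), 0.40 for MRPS6 (adjusted p = 0.012) and 0.38 for MRPL40 (adjusted p = 0.004). On the lower side it was -0.93 for MRPL48 (adjusted p = 4.2e-10), -0.63 for MRPS27 (adjusted p = 4.7e-08) and -0.50 for MRPS9 (adjusted p = 1.3e-05). MRPS6, a conserved small-subunit protein, was not called at either time alone, with -0.20 at 6 h and 0.20 at 8 d.

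Between lines at 6 h, CCRF-CEM minus KOPT-K1 was -0.57 for MRPS12 (adjusted p = 0.0094), -0.55 for MRPS26 (adjusted p = 0.0011) and -0.36 for MRPS2 (adjusted p = 0.0019). TALL-1 minus CCRF-CEM was 0.32 for MRPL44 (adjusted p = 0.015) and 0.31 for MRPL45 (adjusted p = 0.015). TALL-1 minus KOPT-K1 was 0.33 for MRPS33 (adjusted p = 0.025), 0.30 for MRPS18C (adjusted p = 0.01) and 0.28 for MRPL44 (adjusted p = 0.032). It was -0.60 for MRPS26 (adjusted p = 0.00042), -0.32 for MRPL14 (adjusted p = 0.0048) and -0.30 for MRPL17 (adjusted p = 0.049), and the MRPL17, MRPL44 and MRPS33 calls were each lost under at least 1 alternative.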

How the results depend on the processing

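Members called were counted again under each alternative. With median-ratio rescaling, higher calls became 8 in Jurkat at 8 d, 5 in gSMARCA4, 5 in gSMARCA4_A2 and 9 in CCRF-CEM. The shares of all tested genes were then 32.5%, 22.2%, 33% and 22.5%. Lower calls became 28 in CCRF-CEM and 20 in KOPT-K1, beside 25.9% and 19.8%. The difference TALL-1 minus CCRF-CEM had 6 calls, beside 11.4% higher and 9.52% lower of all tested genes. Without mitochondrial mRNAs gARID1A had 1 lower call, beside 14.8% of all tested genes. In the fit of 2 groups gARID1A_1B had 7 lower calls, beside 24.6%. The replicate block, which treats same-numbered libraries as matched, gave 22 lower calls in KOPT-K1, beside 19.6% of all tested genes. In TALL-1 it gave 31 higher and 17 lower, beside 32.4% and 23.7%. With it, the differences CCRF-CEM minus KOPT-K1, TALL-1 minus CCRF-CEM and TALL-1 minus KOPT-K1 had 19, 20 and 26 calls. Calls over all tested genes rose with the block as well, as given in the report. The block moved no other count by over 1.5 times. Leaving out 1 library gave 7 to 11 lower calls in Jurkat at 6 h, 10 to 20 higher and 0 to 1 lower in gARID1A, 3 to 6 for gARID1A_1B against gARID1A, and 3 to 10, 2 to 8 and 5 to 8 for the 3 differences between lines. The cause was not tested. Of 1872 settings for 118 named results, 1809 kept direction and call, 63 lost the call and 0 reversed. TPM gives shares of a library, so no total per cell can be read from these values.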
